A study of Homo sapiens with 4 samples.

Results

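The cytosolic chaperonin CCT, also called TRiC, is built from 8 different subunits encoded by TCP1, CCT2, CCT3, CCT4, CCT5, CCT6A, CCT7 and CCT8. These 8 genes were taken by symbol, as the members of the complex, from a table of 19948 protein-coding genes. The table holds counts of capped, polyadenylated RNA from 4 pools of a polysome gradient of HEK293T cells, a line derived from human embryonic kidney: RNA free of ribosomes, RNA with a single ribosome (monosome), and light and heavy polysomes. All 4 pools came from cells given cycloheximide, a drug that stops ribosomes where they are on the message, at 100 ug/mL over 10 min. No inhibitor, knockdown or genotype is named in the labels for any pool. The lysate was spun through sucrose from 10% to 50%, and the RNA was captured through its cap and sequenced directly on nanopores. With 1 library per pool there is no replicate spread, and the text gives no p-value. Intervals are 95% intervals for counting error only.

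CCT is a stacked pair of rings, each holding one copy of every subunit in a fixed order. It encloses unfolded proteins, among them actin and tubulin, and opens and closes as its subunits hydrolyse ATP. Prefoldin and the HSP70 system hand clients to it. Because each ring takes the subunits in equal number, cells need their proteins in like amounts. On one side of the ring (TCP1, CCT2, CCT4 and CCT5) the subunits are known to bind and use ATP more strongly than on the other (CCT3, CCT6A, CCT7 and CCT8).

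The subunits are homologues of like length, so ribosome loading can be compared among them with little difference in the room for ribosomes. Their coding sequences run from 1593 nucleotides (CCT6A) to 1668 nucleotides (TCP1) in GENCODE release 29, stop codon left out. The letters GGNGANGGNACN, which encode the start of the ATP-binding motif shared by the family, were searched for in frame on the coding strand. They were found once in each of the 8 coding sequences, and at least once in 1.89% of 19537 coding sequences of all genes. The windows are shown because they hold a stretch common to all 8 mRNAs. Capitals mark the matched letters.
TCP1: aaagaagttGGAGATGGAACTacttcagtg
CCT2: gatgaagttGGTGATGGCACTacctctgtt
CCT3: gaagaggttGGAGATGGGACCacatcagta
CCT4: atagaagcaGGAGATGGCACCacatcagta
CCT5: gatgaaattGGAGATGGAACCacaggagtg
CCT6A: gatataactGGTGATGGTACGacttctaat
CCT7: gctgaggtgGGTGATGGCACCacctcagtg
CCT8: caagaagttGGAGATGGCACAaactttgtt
The match begins at codon 87 in TCP1, 96 in CCT2, 92 in CCT3, 103 in CCT4, 103 in CCT5, 89 in CCT6A, 91 in CCT7 and 98 in CCT8. The longer pattern GGNGANGGNACNACN was found in 7 of the 8, all but CCT8, and in 0.123% of all coding sequences.

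The study concerns mRNAs whose capped end is a stretch of pyrimidines (TOP mRNAs), and the annotated starts of the subunit genes were read for such a run. The windows below hold 10 bases before and 20 bases from the annotated start in RefSeq (GRCh38.p14), and capitals mark an unbroken run of C and T that begins at the start itself. RPS6, a ribosomal protein gene, is shown as a TOP example.
TCP1: tgtgttacccagtagctcctgggacatcgc
CCT2: ggcttccttcagtccgctggtcccgagcac
CCT3: gggttgaggtgtaagccctgaggaggcagc
CCT4: ggaaggccccCTTCTCCgcctccgcctcct
CCT5: cggctctgccatgtgctccccggaaaggtc
CCT7: tgcgcgaggcattgtgggttgctgggcggc
CCT8: tgtgcgtgctCCTCgcttcctccgcggtct
RPS6: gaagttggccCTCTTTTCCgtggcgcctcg
These lie at chr6:159789583-159789612 (minus strand) for TCP1, chr12:69585449-69585478 (plus) for CCT2, chr1:156338273-156338302 (minus) for CCT3, chr2:61888637-61888666 (minus) for CCT4 and chr5:10250527-10250556 (plus) for CCT5. Those of CCT7, CCT8 and RPS6 lie at chr2:73234298-73234327 (plus), chr21:29073629-29073658 (minus) and chr9:19380217-19380246 (minus). CCT6A had no entry. A C followed by at least 4 more pyrimidines stood at the start of CCT4, with a run of 7, and of no other subunit shown. A second annotated start of CCT4 and one of CCT2 had no run. The same pattern stood at the start in 4.60% of 20990 windows of coding genes and in 54.5% of 88 windows of ribosomal protein genes. These are annotated starts, and the starts used in these cells were not measured here.

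The libraries held 355509 (free), 1329334 (monosome), 1499401 (light polysome) and 1564531 (heavy polysome) counts. Genes with at least 30 counts over the 4 libraries were tested, which left 7527, all 8 subunits among them. Of 7 genes known from HEK293T, 5 passed this minimum, NEFL with 147 counts in the heavy polysome library and LIN28B with 69 among them, while PAX2 had at most 3 counts in any library. Of 8 markers of other cells (blood, liver, pancreas, skin, vessel and connective tissue) none passed: 6 had no count, COL1A1 had 2 in the heavy polysome library and HBB 4 in the free library.

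The chaperonin mRNAs were concentrated in the heavy polysomes. Summed over the 8 subunits there were 69 counts in the free, 686 in the monosome, 1167 in the light polysome and 7040 in the heavy polysome pool. Scaled to a common library total (CPM) this is 194 (interval 151 to 246), 516 (478 to 556), 778 (734 to 824) and 4500 (4395 to 4606). Each subunit had its highest CPM in the heavy polysome library and its lowest in the free library. The monosome value lay below the light polysome value in 6 of the 8, and above it, within counting error, in CCT5 and CCT8. Every value is relative to its own library, since how much RNA each pool held is not stated in the labels. A read of direct RNA stands for 1 molecule, so counts of different subunits were compared without dividing by length. Their annotated mRNAs, untranslated parts included, run from 1916 nucleotides (CCT7) to 3675 nucleotides (CCT5). The part of mRNA length in the counts was not tested.

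**Figure D1:**
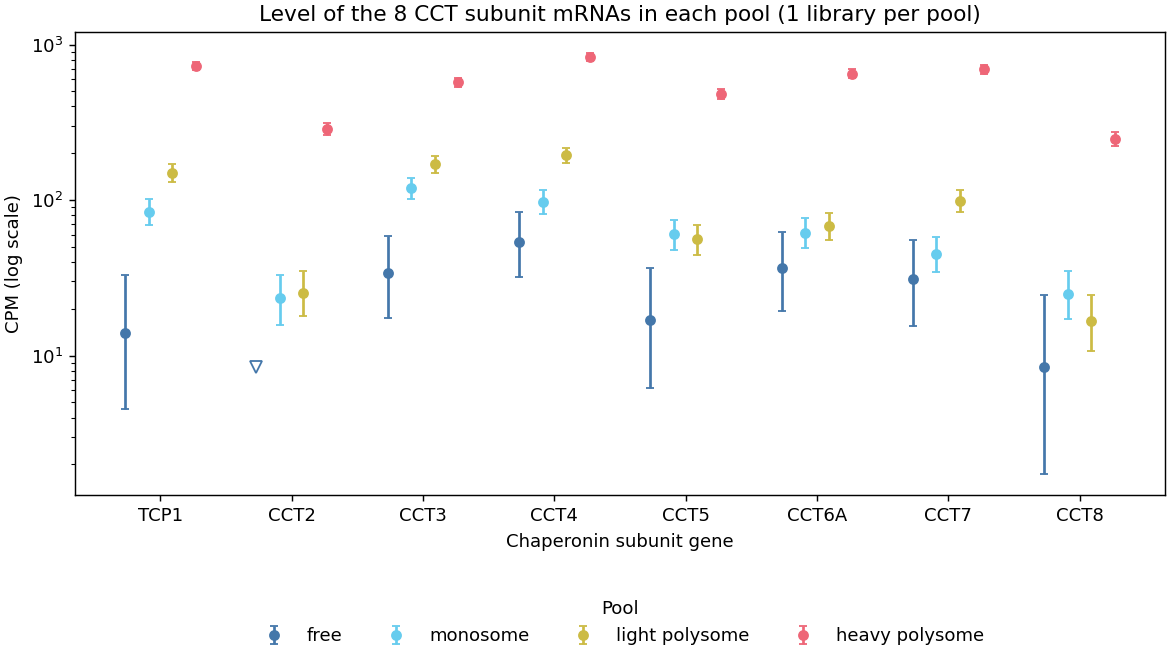
CPM (log axis) of the 8 chaperonin subunit genes in the free, monosome, light polysome and heavy polysome libraries, 1 library per pool. Bars are exact Poisson 95% intervals, and the open triangle is the floor of 3 counts, 8.44 CPM, for CCT2, which had no count in the free library; every heavy polysome point (247 to 833 CPM) lies above all other points of its gene.

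On the side of the ring that uses ATP strongly, TCP1 (the alpha subunit, after which the family is named; chromosome 6, 159778498 to 159789749, minus strand) had 14.1 CPM in the free, 84.3 in the monosome, 149 in the light polysome and 733 in the heavy polysome library. These are 5, 112, 223 and 1147 counts, and each step toward heavier pools was upward. CCT2 (beta; chromosome 12, 69585334 to 69601570, plus strand) had no count in the free library, 23.3 CPM in the monosome, 25.3 in the light polysome and 287 in the heavy polysome library. Its monosome and light polysome values, 31 and 38 counts, had overlapping intervals, and the step upward lay between light and heavy. CCT4 (delta; chromosome 2, 61868089 to 61888804, minus strand) had 53.4, 97.8, 194 and 833 CPM in the same order, from 19, 130, 291 and 1303 counts. It was the most counted subunit in every library but the monosome one, where CCT3 stood above it within counting error. CCT5 (epsilon; chromosome 5, 10249921 to 10266412, plus strand) had 16.9, 60.2, 56.0 and 482 CPM, from 6, 80, 84 and 754 counts, level between monosome and light polysome and far higher in the heavy polysomes.

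On the other side, CCT3 (gamma; chromosome 1, 156308968 to 156367873, minus strand) had 33.8, 119, 170 and 575 CPM, from 12, 158, 255 and 899 counts. It kept the largest part of its signal outside the heavy polysomes: of its CPM summed over the pools, 64.0% lay in the heavy polysome library, against 70.7% to 85.5% for the other subunits. CCT6A (zeta; chromosome 7, 56051630 to 56063989, plus strand) had 36.6, 61.7, 68.0 and 651 CPM, from 13, 82, 102 and 1019 counts. CCT7 (eta; chromosome 2, 73233420 to 73253021, plus strand) had 30.9, 45.1, 99.4 and 692 CPM, from 11, 60, 149 and 1082 counts. It was low in the monosomes for its level in the heavy polysomes, where it ranked behind CCT4 and TCP1. CCT8 (theta; chromosome 21, 29055805 to 29073797, minus strand) had 8.44, 24.8, 16.7 and 247 CPM, from 3, 33, 25 and 387 counts, and was the least counted subunit in both polysome libraries.

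The subunit mRNAs were not equally abundant, although their proteins enter the complex in equal number. In the heavy polysome library the order was CCT4, TCP1, CCT7, CCT6A, CCT3, CCT5, CCT2 and CCT8, with a 3.37-fold distance between the ends. Neighbours in that order differed beyond counting error except TCP1 and CCT7, with a ratio of 1.06 (0.97 to 1.15), and CCT7 and CCT6A, also 1.06 (0.97 to 1.16). The ends lay 5.10-fold apart in the monosome library and 11.6-fold apart in the light polysome library. In the light polysome library the order CCT4, CCT3 and TCP1 was within counting error from each to the next, then TCP1 stood 1.50-fold (1.21 to 1.85) above CCT7 and CCT7 1.46-fold (1.13 to 1.90) above CCT6A. The free library, with 19 counts or fewer per subunit, separated no neighbours.

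**Figure D2:**
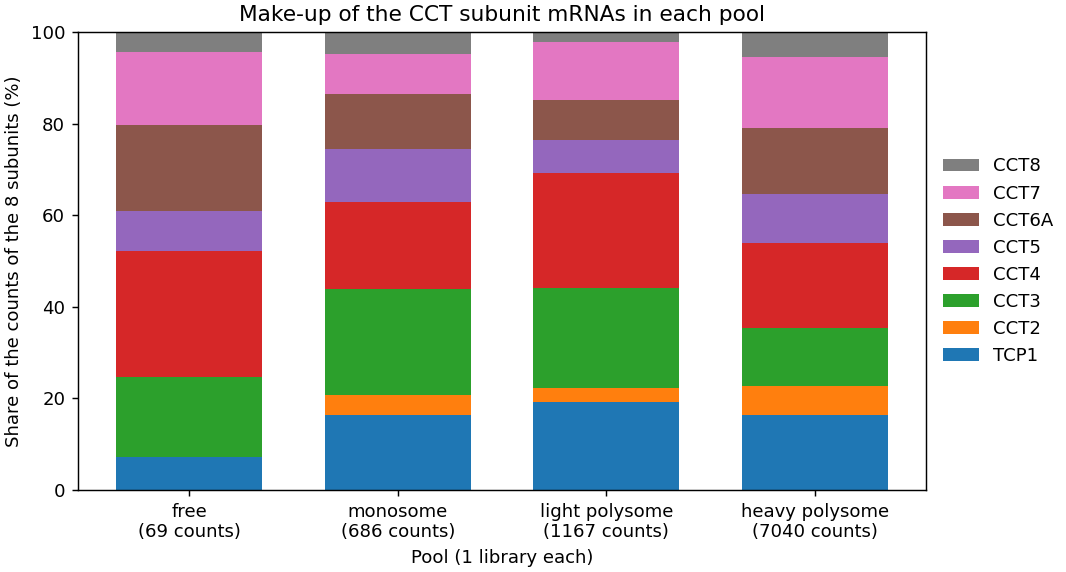
Share of the counts of the 8 subunits taken by each, in percent, stacked per pool, with the summed counts under each bar. CCT3 and CCT4 together fill more of the light polysome bar (21.9% and 24.9%) than of the heavy polysome bar (12.8% and 18.5%), while CCT2 and CCT8 are narrow in all 4.

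The make-up of the chaperonin mRNAs differed between the polysome pools. CCT3 took 21.9% (Clopper-Pearson interval 19.5 to 24.3) of the subunit counts in the light and 12.8% (12.0 to 13.6) in the heavy polysome library. CCT4 took 24.9% (22.5 to 27.5) and 18.5% (17.6 to 19.4). CCT6A moved the other way, with 8.74% (7.18 to 10.5) and 14.5% (13.7 to 15.3), as did CCT8 with 2.14% (1.39 to 3.15) and 5.50% (4.98 to 6.06) and CCT2 with 3.26% (2.31 to 4.44) and 6.38% (5.82 to 6.97). CCT5, with 7.20% (5.78 to 8.83) and 10.7% (10.0 to 11.5), also took more of the heavy pool. For TCP1, with 19.1% (16.9 to 21.5) and 16.3% (15.4 to 17.2), and CCT7, with 12.8% (10.9 to 14.8) and 15.4% (14.5 to 16.2), the intervals overlapped.

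The comparison of heavy with light polysomes separates mRNAs with many ribosomes from those with few. All 8 subunits lay toward the heavy end. A gene's value is the log2 ratio of its shares, after adding 0.5 to each count, set against the median tested gene, and a gene was called when it lay at least 2-fold from that median with an interval that excluded it. All 8 were called higher, where 26.0% of all tested genes were, and none lower, where 28.3% were. Of the 194 tested genes with coding lengths from that of CCT6A to that of TCP1, 40.7% were called higher. The median of these 194 was 0.70 on the log2 scale against 2.36 for the subunits. This set, used below as the genes of like coding length, includes the 8 subunits themselves. The median gene itself had a 1.51-fold higher share in the heavy polysomes. The subunits were also more abundant than most genes, with a median of 613 CPM in the heavy and 83.7 in the light polysome library against 37.7 and 24.7 for tested genes, and the part of abundance in these values was not tested.

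CCT8 lay furthest, at log2 3.27 (2.72 to 3.95), higher than 98.9% of tested genes. CCT2 followed at 2.89 (2.43 to 3.43), CCT6A at 2.66 (2.37 to 2.98), CCT5 at 2.51 (2.19 to 2.86) and CCT7 at 2.20 (1.96 to 2.47). TCP1 at 1.71 (1.50 to 1.92), CCT4 at 1.51 (1.33 to 1.70) and CCT3 at 1.16 (0.96 to 1.37) formed the lower end, with CCT3 above 77.2% of tested genes. The ATP-using side ran from 1.51 to 2.89 and the other side from 1.16 to 3.27, so the sides of the ring overlapped. Of the 28 pairs of subunits, 21 differed in this ratio beyond their single-pair interval and 12 by at least 2-fold. The widest distance was between CCT3 and CCT8, at 2.13 on the log2 scale (1.51 to 2.81). The pairs share subunits, and no correction for their number was made.

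**Figure D3:**
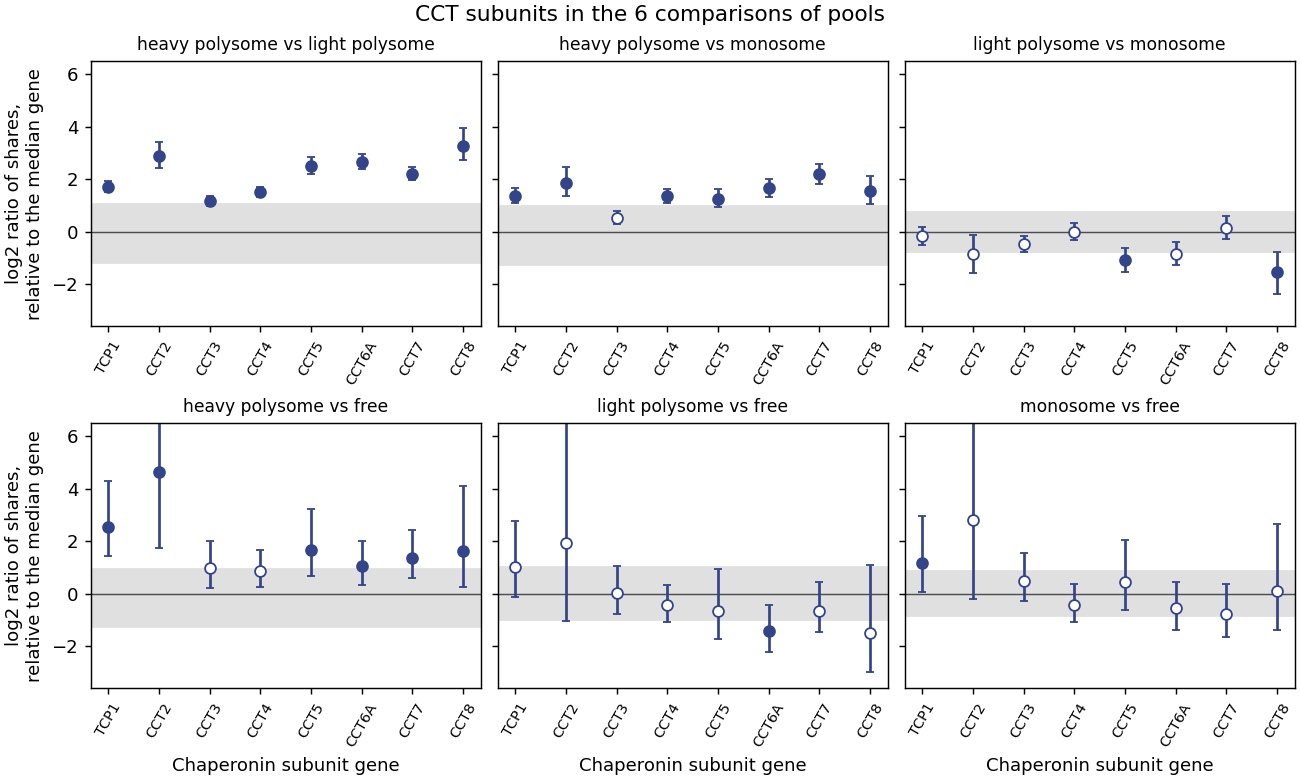
log2 ratio of shares relative to the median tested gene for the 8 subunits in the 6 comparisons of pools, with 95% counting intervals (cut at the upper edge for CCT2 against the free library, which had no upper bound). Filled points were called, the grey band holds the middle 50% of tested genes, and all 8 points are filled and above 0 in heavy against light polysome.

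Heavy polysomes and monosomes were compared to set many ribosomes against one. Here 7 of the 8 subunits were called higher, against 21.0% of all tested genes and 24.7% of those of like coding length, and none lower, where 27.0% of tested genes were. The subunit median was 1.47, against 0.38 for genes of like length. CCT7 was highest at 2.19 (1.82 to 2.60), ahead of CCT2 at 1.86 (1.35 to 2.46), CCT6A at 1.65 (1.33 to 2.00) and CCT8 at 1.56 (1.06 to 2.14). With the libraries thinned to the total of the free one, which left CCT2 with 2 counts in the monosome library, CCT2 lay at 3.87, above CCT7 at 2.37. TCP1 lay at 1.37 (1.10 to 1.67), CCT4 at 1.34 (1.09 to 1.62) and CCT5 at 1.25 (0.93 to 1.61). CCT3, at 0.53 (0.29 to 0.79), lay above the median gene but was not called. Of the 28 pairs of subunits, 11 differed beyond their interval and 4 were at least 2-fold apart. In plain shares the summed subunits were 8.72-fold higher (8.06 to 9.44) in the heavy polysomes than in the monosomes, where the median gene was 3.34-fold higher.

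Light polysomes and monosomes were compared to set few ribosomes against one. The subunits lay near or below the median gene, with a median of -0.66 and 6 of 8 below it. None was called higher, where 14.9% of tested genes were. CCT8, at -1.55 (-2.37 to -0.76), and CCT5, at -1.09 (-1.55 to -0.63), were the 2 of 8 called lower, where 16.3% of all tested genes were. CCT2, at -0.87 (-1.59 to -0.13), CCT6A, at -0.84 (-1.28 to -0.41), and CCT3, at -0.47 (-0.76 to -0.17), had intervals below the median gene without reaching 2-fold. Thinned in the same way, CCT2 lay on the other side, at 1.40, from 12 light polysome and 2 monosome counts. TCP1 at -0.17 (-0.50 to 0.18), CCT4 at 0.00 (-0.30 to 0.31) and CCT7 at 0.15 (-0.29 to 0.61) were level with it. In plain shares the direction was the other one: the summed subunits were 1.51-fold higher (1.37 to 1.66) in the light polysomes, less than the 1.98-fold of the median gene. The 3 comparisons among monosome, light and heavy polysome libraries share these libraries and are not independent of each other.

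The free library was compared with each of the others, at a depth that leaves wide intervals. In heavy polysome against free, 6 of 8 subunits were called higher, against 6.36% of all tested genes and 11.9% of those of like coding length. None was called lower, where 15.3% of tested genes were, and the subunit median was 1.49. A call also needs an interval that excludes the median gene, so it depends on counts as well as on the ratio. The median tested gene had 1 count in the free library. By ratio alone, the called subunits lay above 99.9% (CCT2), 96.6% (TCP1), 88.5% (CCT5), 87.6% (CCT8), 84.2% (CCT7) and 78.0% (CCT6A) of tested genes. CCT3 and CCT4, not called, lay above 76.4% and 73.5%. The place of CCT2, which had no count in the free library, rests on the amount added to each count and on its heavy polysome count. With genes without a count put at the floor of 3 counts, CCT2 lay at 2.96, below TCP1 at 3.66. The other percentages also rest on few free library counts, so ranking by ratio does not remove the part of depth. The part of depth in the calls and in these percentages was not tested. With edgeR's TMM scaling the calls over all tested genes moved from 479 higher and 1152 lower to 931 and 943. TCP1, with 5 counts in the free library, lay at 2.52 (1.43 to 4.28), CCT5 at 1.68 (0.66 to 3.24), CCT8 at 1.61 (0.27 to 4.11), CCT7 at 1.37 (0.59 to 2.44) and CCT6A at 1.06 (0.33 to 2.02). CCT3 at 0.99 (0.23 to 2.00) and CCT4 at 0.88 (0.27 to 1.65) fell just short of 2-fold. CCT2 was called too. Its free library count was 0, and with 3 counts put in its place its share was 34.0-fold higher, with the median gene at 8.26-fold. Its interval began at 1.74 on the log2 scale relative to the median gene and had no upper bound. Summed over the subunits the share was 23.2-fold higher (18.3 to 29.8).

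In light polysome against free no subunit was called higher, where 7.93% of all tested genes were. CCT6A, with 102 and 13 counts, was the 1 subunit called lower, at -1.42 (-2.21 to -0.42), where 8.73% of tested genes were, and the subunit median was -0.54. In monosome against free, TCP1 was the 1 subunit called higher, at 1.18 (0.05 to 2.97), where 5.13% of all tested genes were. By ratio alone, which also rests on few free library counts, TCP1 lay above 81.8% of tested genes. No subunit was called lower (4.57% of tested genes were), and the subunit median was 0.27. With TMM scaling the calls over all tested genes moved from 597 higher and 657 lower to 808 and 538 in the former comparison, and from 386 and 344 to 551 and 248 in the latter. The other 7 subunits in each of these comparisons had no call, and each of their intervals is wider than 2-fold. The 3 comparisons share the free library.

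The mean gradient position, the average of 0 (free), 1 (monosome), 2 (light) and 3 (heavy polysome) weighted by a gene's CPM, gives each subunit a single value. CCT2 lay highest at 2.79, then CCT8 at 2.69, CCT7 at 2.67, TCP1 and CCT6A and CCT5 at 2.63, CCT4 at 2.53 and CCT3 at 2.43. Their median was 2.63, against 2.25 for all tested genes and 2.41 for those of like coding length. CCT3 stood above 70.6% of tested genes and CCT2 above 98.6%. With DESeq2 size factors in place of CPM the positions of CCT3 and CCT4 stood above 59.3% and 64.9% of tested genes, and that of CCT2 above 98.1%.

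**Figure D4:**
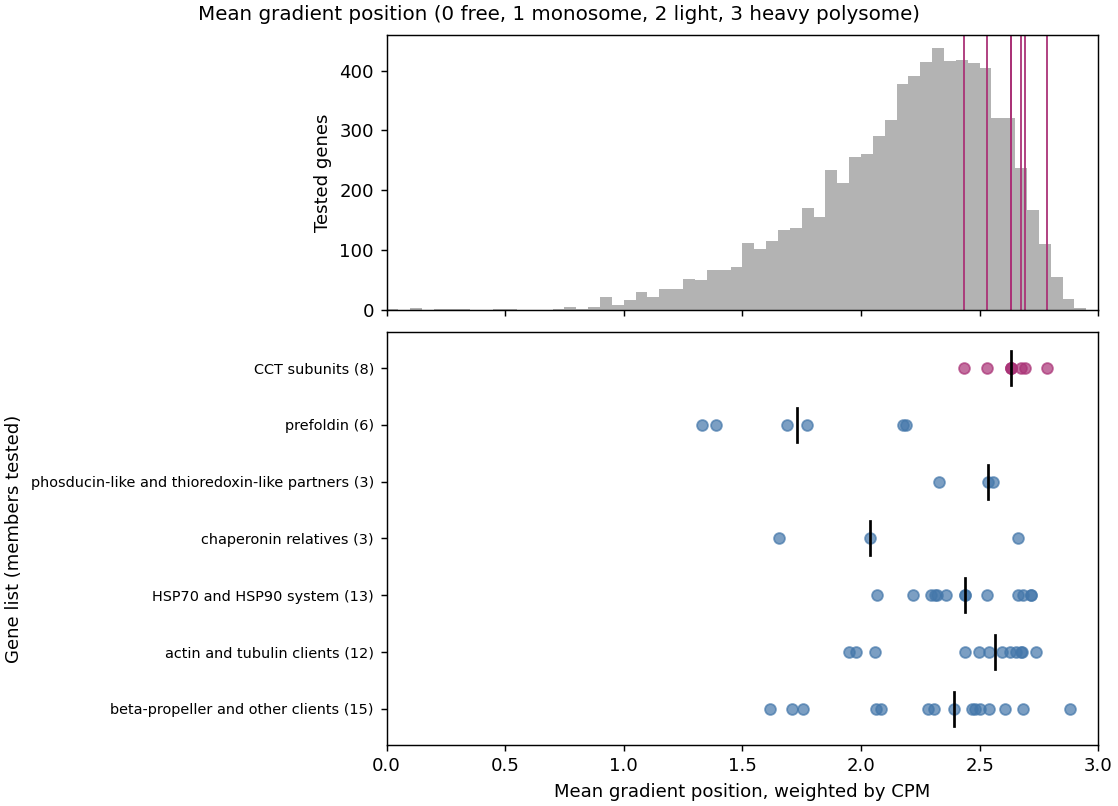
Upper panel: number of tested genes by mean gradient position (0 free to 3 heavy polysome), with vertical lines at the 8 subunits, between 2.43 and 2.79. Lower panel: positions of the tested members of the chaperonin and of the lists of partners, relatives and clients, with black bars at medians. The chaperonin points lie at the heavy end and all 6 prefoldin points to their left. Coding length was not matched among these lists.

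Genes that work with the chaperonin did not share one place in the gradient. Values below are log2 ratios of heavy against light polysome relative to the median gene, and genes named beyond the most counted, the highest and the lowest of a list were chosen after their values were seen. None of the 6 prefoldin genes, whose product delivers actin and tubulin chains to CCT, was called higher, and PFDN1, PFDN2 and PFDN4 were called lower. PFDN4 was lowest at -2.51 (-3.00 to -2.06) and VBP1 highest at 0.16 (-0.07 to 0.40), while PFDN5, the most counted, had 322 heavy and 397 light polysome counts and lay at -0.95 (-1.17 to -0.74). The list's median was -1.01. Of all tested genes, 28.3% were called lower. Neither prefoldin nor the lists below were set beside genes of like coding length, as the subunits were. How much coding length contributes to the distance between prefoldin and the subunits was not tested.

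Of the 4 phosducin-like and thioredoxin-like partners, which bind CCT and modulate folding, 3 were tested. PDCL at 2.24 (1.18 to 3.70) and TXNDC9 at 1.29 (0.52 to 2.22) were called higher, from 55 and 63 counts in the heavy library (26.0% of all tested genes were called higher), and PDCL3, the most counted, lay at 0.18 (-0.19 to 0.56). Among the 13 genes of the HSP70 and HSP90 system 10 were called higher and none lower, with a median of 1.70, where 26.0% of all tested genes were called higher and 28.3% lower. DNAJA1, an HSP70 co-chaperone, was highest at 3.98 (3.48 to 4.57), and PTGES3, the HSP90 co-chaperone p23 and the most counted, was lowest at -0.50 (-0.60 to -0.40).

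Of the 14 actin and tubulin genes, the main clients, 12 were tested, 10 were called higher and none lower, with a median of 1.88, against 26.0% and 28.3% of all tested genes. ACTB lay highest at 2.52 (2.43 to 2.60) and TUBA1C lowest at 0.58 (0.42 to 0.74). Reads of near-identical tubulin and actin copies may have been split by the counting, so these values are uncertain. Of 17 other clients, many of them beta-propeller proteins, 15 were tested with a median of 0.58. The 5 called higher were CDC20, FZR1, GNB4, GNB5 and PPP2R2A, and the 4 called lower were PPP2R2D, MLST8, VHL and BBS7, shares near the 26.0% and 28.3% of all tested genes. CDC20, the mitotic activator of the anaphase-promoting complex, lay at 1.96 (1.66 to 2.28) and MLST8, a propeller subunit of the mTOR complexes, at -1.82 (-2.02 to -1.63).

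The relatives of CCT were mostly too rare to compare. CCT6B, a paralogue of CCT6A known from testis, had 1 count in all, in the monosome library, and CCT8L2 had none. HSPD1, the mitochondrial chaperonin, lay at 3.31 (2.96 to 3.70) from 1038 heavy and 66 light polysome counts. HSPE1, its small co-chaperonin, was called lower at -1.29 (-2.01 to -0.61) from 30 and 47 counts, and MKKS, a chaperonin-like protein of cilia, at -2.51 (-4.18 to -1.25) from 6 and 23.

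Among the 5 genes whose profile over the 4 libraries was nearest to that of the summed subunits, by distance between centred log2 CPM among 2783 genes with at least 200 counts, were ADSS (distance 0.16), DIMT1 (0.19), SCD (0.19) and SLC25A3 (0.21). SLC25A3, the mitochondrial phosphate carrier, had 11, 125, 192 and 1050 counts from free to heavy polysome. Single subunits lay further from their own sum, from 0.51 for CCT4 to 2.41 for CCT2, whose distance rests on its missing count in the free library. With the free library left out the nearest 5 were KRT18, MRPL15, PRKACA, TUBB and IGFBP2, none of them among the former 5.

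Some subunits share sequence with other genes, and the labels do not say how the counting treated such reads. Exons of TCP1 and of ACAT2 on the opposite strand overlap over 397 nucleotides, and ACAT2 had 8, 31, 57 and 381 counts from free to heavy polysome, with a log2 ratio of heavy against light of 2.08 (1.68 to 2.52). Exons of CCT4 and of COMMD1 on the opposite strand overlap over 81 nucleotides. COMMD1 had 4245, 18454, 8343 and 2826 counts and lay at -2.21 (-2.28 to -2.15). Antisense noncoding genes cover 275 nucleotides of CCT4 exons and 1757 nucleotides of CCT5 exons, and the small nucleolar RNA genes SNORA29 and SNORA20 lie on the strand of TCP1 and cover 140 and 12 nucleotides of its exons. GENCODE lists 13 pseudogenes by name for the family, 4 of them of CCT6A and none of CCT2 or CCT3. The part of these overlaps in the subunits' values was not tested.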

How the data were processed

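The deposited table holds unscaled whole-number counts for each gene, in 1 column for each of the 4 pools. The submitters' processing notes name the aligner minimap2 (version 2.15), the counter featureCounts (Subread 1.6.2) and build hg38. The annotation release, strand setting and handling of multi-mapping reads are not stated there. The members and gene lists were chosen with earlier results of these data known.

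Everything else was computed from the counts. Genes with at least 30 counts over the 4 libraries were tested. Ratios of shares used a pseudocount of 0.5 and were set relative to the median tested gene, since scaling factors move all genes of a comparison alike. Intervals are exact: conditional binomial (Clopper-Pearson) for ratios and shares, Poisson for CPM, and the conditional odds ratio for pairs of subunits. Because each pool has a single library, edgeR's quasi-likelihood test has no residual degrees of freedom and could not be fitted. The limit that a count of 0 allows was taken as 3 counts, which is 8.44 CPM in the free library. The procedure was tested on simulated data. GENCODE release 29 gave coordinates, and coding lengths for 99.2% of tested genes, and RefSeq gave start windows for 7 of the 8 subunits. Named genes were the 8 subunits, the most counted, highest and lowest member (heavy against light polysome, at least 100 counts in the pair) of each list, and the 5 genes of nearest profile, of which 1 is not reported here. Alternatives were a pseudocount of 1 or none, minimum counts of 1, 10 or 100, TMM (edgeR 4.0.16), DESeq2 1.42.0 size factors, totals without ribosomal protein genes, thinning to the free library's total, summed counts, and position weights. After seeing the data, a floor of 3 counts and plain shares were added. Python 3.11.15, numpy 2.4.6, pandas 2.3.3, scipy 1.17.1, matplotlib 3.10.9 and R 4.3.3 were used.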

Additional observations from a re-analysis of the deposited data

How the results depend on the processing

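No paired analysis was possible because each pool has 1 library. Depth limits every comparison with the free library, which holds 69 of the subunit counts. In heavy against light polysome and in heavy polysome against free the subunit medians kept their direction under every alternative run, ranging from 1.94 to 2.95 and from 1.37 to 4.54, and the counts of calls stayed within 1.5 times. In heavy polysome against monosome the median kept its direction. It moved to 2.42 with totals that leave out ribosomal protein genes and to 3.21 in plain shares. Neither of these is set against the median gene, nor are TMM and DESeq2 size factors, which each gave 1.68.

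In light polysome against monosome the median turned to 0.33 in plain shares, where 1 subunit was called higher and 0 lower. Of the 7527 tested genes, plain shares called 3310 higher and 278 lower. The 2 lower calls of subunits fell to 1 with a minimum of 1 count, without ribosomal protein genes, and after thinning. Thinning also turned CCT2 to 1.40. In light polysome against free the median turned to 0.34 with a minimum of 1 count, 0.79 without ribosomal protein genes, 0.24 at the floor of 3 counts and 1.72 in plain shares. There 1 subunit was called higher with a pseudocount of 1 or none, minimums of 1 or 10 counts, TMM, DESeq2 or the floor. It was 3 subunits without ribosomal protein genes and 6 in plain shares. Plain shares called 4285 of all tested genes higher and 66 lower in this comparison. No such count is given here for the totals without ribosomal protein genes. The lower call, CCT6A, which lay at 0.85 in plain shares, was lost (0 lower) with a pseudocount of 1, a minimum of 1, without ribosomal protein genes, at the floor and in plain shares.

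In monosome against free the number of subunits called higher was 2 with a pseudocount of 1, a minimum of 10 or TMM. It was 4 with a minimum of 1, without ribosomal protein genes or in plain shares, 3 at the floor, and 0 with a minimum of 100 or after thinning. Over all tested genes, plain shares called 2048 higher and 60 lower. The median position was 2.12 with DESeq2 size factors, where the median of all tested genes moved to 1.73. Plain shares leave out only the step of setting values against the median gene. A changed minimum count changes only the median gene that the values are set against. TMM, DESeq2 size factors and totals without ribosomal protein genes replace the library totals and leave out the median gene. Within a comparison of pools, each of these settings moves the log2 ratios of all genes alike. The cause of the remaining shifts was not tested. Of the 5 nearest profiles, 0 were shared without the free library.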
